A study of Mus musculus with 28 samples.

Results

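A set of 7 negative-feedback regulators of RAS-ERK signalling was followed in mouse colon organoids: *Spry2*, *Spry4*, *Spred1*, *Spred2*, *Dusp4*, *Dusp5* and *Dusp6*. They were chosen as named regulators of this pathway with earlier results of these data known, and all 7 were among the 13519 genes counted by RNA-seq. When Cre was switched on, *Spry4*, *Spred1* and *Dusp6* rose in organoids that carried the *Braf* allele, *Spry2* and *Dusp5* were lower in every culture of every genotype, and *Spred2* stayed within 0.27 of its control on the log2 scale. *Dusp4* lay between these patterns.

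Organoids are cultures of primary epithelium grown in a gel matrix. They came from C57BL/6N mice of 4 genotypes, and every culture carried the *Villin::CreERT2* transgene, a Cre recombinase driven by an epithelial promoter, and the *Apc* flox/flox alleles. AC organoids carried nothing further, PAC organoids added *Trp53* LSL-R172H/+, BAC organoids added *Braf* floxV600E/+, and BPAC organoids carried both added alleles. AC came from 1 donor mouse and the other genotypes from 2 mice each, per the labels, and each mouse gave 2 cultures, here called duplicates 1 and 2. Each of the 14 cultures was given ethanol (EtOH) or 3.5 µM 4-hydroxytamoxifen (4-HT), which activates the Cre, for 24 hours, and RNA was taken 3 days later. None of the 28 samples lacked the *Apc* flox alleles, so every 4-HT value includes the *Apc* recombination and 4-HT itself, and these cannot be told apart. The 2 cultures of a donor share that animal, so p-values measure the spread between cultures of 7 animals.

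RAS-ERK signalling passes from receptor tyrosine kinases through RAS and RAF to MEK and ERK, and BRAF V600E is a RAF kinase that signals without its upstream input. ERK output induces its own brakes: Sprouty proteins act near the receptor and RAS, Spred proteins bring the RAS-GAP neurofibromin to the membrane, and dual-specificity phosphatases (DUSPs) remove the activating phosphates from ERK. DUSP4 and DUSP5 are nuclear enzymes and DUSP6 is cytoplasmic. Transcripts of several of these genes serve as readouts of ERK activity, while protein levels and phosphorylation were not measured by the counts.

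Total counts ranged from 20577276 to 40068718 per sample. The 4 samples of duplicate 1 with 4-HT and the *Braf* allele held 37438687 to 40068718 counts, and the other 24 held up to 30306835. With every sample thinned to the smallest total, the *Braf* effect below was still called for 3 of the 7 genes. *Trp53* stood at 51.4 to 66.0 CPM (counts scaled to a common library size by TMM) in the 8 EtOH samples with the LSL allele and at 97.9 to 122 in the 6 without it, a split that follows the labels. *Apc* lay at 27.9 to 49.7 CPM with EtOH and at 51.4 to 73.8 with 4-HT, and rose in all 4 genotypes (log2 0.92, 0.67, 0.88 and 0.78 in AC, PAC, BAC and BPAC), so the total count of the gene did not fall after induction and does not show the recombination. *Braf* itself stood at 20.2 to 27.9 CPM over all 28 samples, and gene counts do not separate the V600E transcript from the normal one. *Xist* and Y-linked counts occurred together in 2 of the 28 samples, the PAC 4-HT samples of duplicate 1, 1 from each donor, and these were also the closest pair of samples (Pearson r = 0.997 across genes). The PAC changes of the 7 genes, and the *Braf* effects called among them and the pathway lists, are also given without these cultures. All 10 colon epithelium markers were counted, with a summed level of 17181 to 30833 CPM. Of the fibroblast, immune and endothelial lists, 2 of 10, 4 of 10 and 3 of 8 genes were counted, with summed levels of 3.69 to 16.6, 2.82 to 8.31 and 2.62 to 9.05 CPM. *Col1a1*, *Ptprc* and *Cdh5* were not among the genes counted. With 4-HT the immune sum was 2.82 to 5.04 CPM in the 8 samples with the *Braf* allele and 5.56 to 8.31 in the 6 without, and the endothelial sum 2.62 to 3.97 against 4.23 to 5.60, so both split along the allele, lower with it, and their part in the results was not tested. In bulk RNA, fewer cells of a type and less RNA per cell cannot be told apart.

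Promoter letters are shown for 2 genes that rose and 2 that fell, so that both sets can be read side by side. Each run covers 250 bases before to 50 after a transcription start of RefSeq (GRCm38.p6), and 5 of the 7 genes had an entry, not *Spry4* and *Dusp4*. *Dusp6* (chr10:99262981-99263280, plus strand) and *Spred1* (chr2:117120821-117121120, plus strand) rose with the *Braf* allele. The *Spred1* window ends before the annotated start of the gene given below, at 117121374, so the 2 sources place its start differently. *Dusp5* (chr19:53528895-53529194, plus strand) and *Spry2* (chr14:105896770-105897069, minus strand) fell. Capitals mark CArG boxes, the core of the serum response element.
Dusp6: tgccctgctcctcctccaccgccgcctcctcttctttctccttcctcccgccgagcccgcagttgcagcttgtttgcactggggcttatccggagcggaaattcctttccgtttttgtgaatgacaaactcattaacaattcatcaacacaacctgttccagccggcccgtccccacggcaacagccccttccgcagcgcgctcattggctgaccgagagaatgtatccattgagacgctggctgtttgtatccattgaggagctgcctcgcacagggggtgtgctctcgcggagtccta
Spred1: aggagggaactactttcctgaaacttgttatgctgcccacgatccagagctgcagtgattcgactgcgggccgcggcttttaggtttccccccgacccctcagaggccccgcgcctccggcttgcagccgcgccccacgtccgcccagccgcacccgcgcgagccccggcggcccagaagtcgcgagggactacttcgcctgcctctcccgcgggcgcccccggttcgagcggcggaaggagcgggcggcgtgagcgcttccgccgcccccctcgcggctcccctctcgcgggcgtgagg
Dusp5: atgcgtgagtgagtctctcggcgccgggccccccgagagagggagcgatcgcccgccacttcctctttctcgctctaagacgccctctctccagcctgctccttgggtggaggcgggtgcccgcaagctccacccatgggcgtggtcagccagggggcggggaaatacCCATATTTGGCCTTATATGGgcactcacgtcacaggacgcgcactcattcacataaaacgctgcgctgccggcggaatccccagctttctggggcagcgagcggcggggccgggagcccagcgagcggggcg
Spry2: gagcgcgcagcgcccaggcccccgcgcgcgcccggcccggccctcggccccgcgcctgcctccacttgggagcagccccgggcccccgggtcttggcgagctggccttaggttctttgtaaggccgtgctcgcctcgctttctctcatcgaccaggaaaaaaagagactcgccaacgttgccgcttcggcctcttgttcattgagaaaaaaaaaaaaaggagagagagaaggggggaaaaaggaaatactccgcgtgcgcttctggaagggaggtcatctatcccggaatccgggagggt

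Of the 5 promoters read, the *Dusp5* window was the one that held the CArG box, with 2 adjacent copies that begin 82 and 72 bases before the start site. Of all 32851 promoters of this length in the table, 1.63% held it. The search covered both strands and 5 other motifs. The ETS motif CCGGAAGT, held by 3.89% of all promoters, was in none of the 5 windows, nor were the AP-1 motif TGANTCA (7.81%), the CRE TGACGTCA (1.79%) or the TCF/LEF motif ATCAAAG (3.73%). The ETS core GGAA, which lies inside CCGGAAGT, occurred 6 times in the *Dusp6* window, 5 times in those of *Spred1* and *Spry2*, 7 times in that of *Spred2* and 3 times in that of *Dusp5*, and 96.0% of all promoters held it. The share of G and C was 72.3% in the *Spred1* window, 66.7% in *Dusp5*, 62.7% in *Spry2*, 57.3% in *Dusp6* and 57.0% in *Spred2*, against a median of 52.7% over all promoters. These matches describe letters in a window and are not binding sites.

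Per kilobase of exon, the order of the levels in the 14 EtOH samples was *Dusp5* (median 24.2 CPM per kilobase, range 15.5 to 37.9), *Dusp6* (24.1, 15.0 to 32.5), *Dusp4* (16.6, 12.2 to 25.7), *Spred1* (8.90, 7.56 to 10.4), *Spred2* (6.45, 5.74 to 8.52), *Spry2* (4.93, 3.87 to 6.21) and *Spry4* (1.41, 0.822 to 2.07). Neighbours in this order overlapped in range except *Dusp4* and *Spred1*, and *Spry2* and *Spry4*. With 4-HT and the *Braf* allele, *Dusp6* led with a median of 44.5 (38.4 to 48.2, 8 samples). *Spry4* then stood at 3.43 (2.62 to 3.83) and overlapped *Spry2* at 3.34 (2.94 to 3.72), which it had lain below with EtOH. Counts of the 7 genes ran from 71 for *Spry4* to 6148 for *Dusp6*, so none was near the counting floor.

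**Figure D1:**
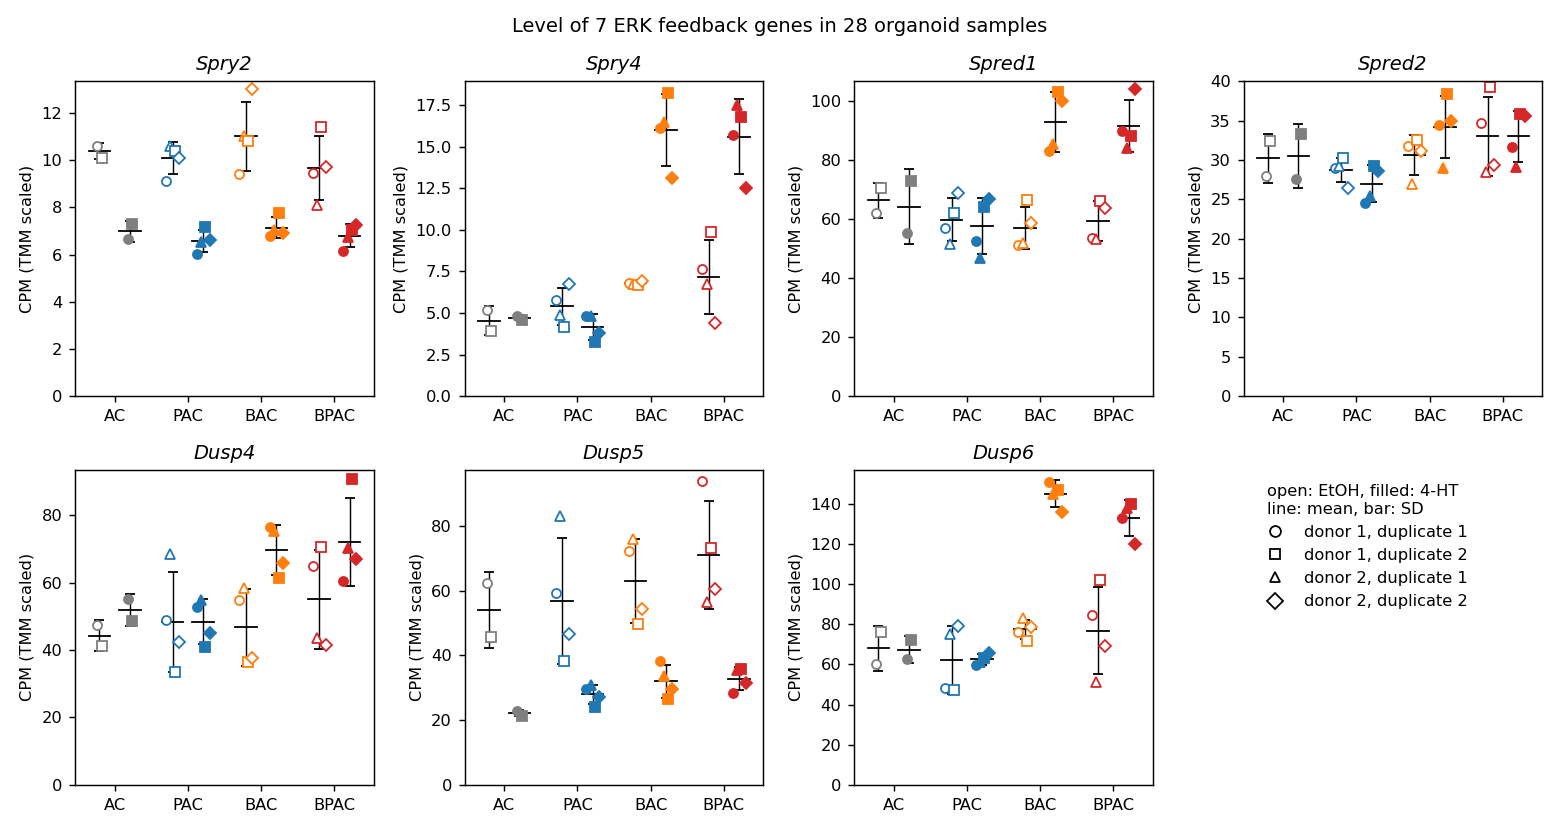
Level of each gene in CPM (TMM scaled, linear axis from 0) in the 28 samples by genotype, with EtOH open and 4-HT filled, marker shapes for donor and duplicate, a line for the mean and a bar for the SD of the group. *Spry4*, *Spred1* and *Dusp6* were higher in every BAC and BPAC sample with 4-HT than in any AC or PAC sample, and *Spry2* and *Dusp5* were lower with 4-HT in all 4 genotypes.

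*Spry4* (ENSMUSG00000024427, GRCm38 chr18:38586247-38601415, minus strand, protein coding) encodes a Sprouty protein and showed the largest rise of the 7 genes. Values are given in the order duplicate 1 of donor 1 and 2, then duplicate 2 of donor 1 and 2. In BAC organoids it stood at 6.83, 6.74, 6.68 and 6.92 CPM with EtOH and at 16.1, 16.5, 18.2 and 13.1 with 4-HT. In BPAC organoids it went from 7.65, 6.76, 9.85 and 4.41 to 15.7, 17.5, 16.8 and 12.5. Every 4-HT sample of these 2 genotypes lay above every EtOH sample. In PAC organoids it went from 5.77, 4.89, 4.18 and 6.76 to 4.80, 4.85, 3.23 and 3.80, and in the AC duplicates from 5.18 and 3.91 to 4.81 and 4.60. These ranges overlapped. The fitted change was 2.35-fold in BAC (log2 1.23, SE 0.19, edgeR adjusted p = 6.93e-06) and 2.18-fold in BPAC (log2 1.12, SE 0.19, edgeR adjusted p = 1.90e-05). In AC and PAC the log2 values were 0.05 (SE 0.27) and -0.37 (SE 0.19), with edgeR adjusted p of 0.933 and 0.138. Without the 2 PAC cultures of duplicate 1 the PAC value was -0.64 (edgeR adjusted p = 0.172).

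*Spry2* (ENSMUSG00000022114, chr14:105891947-105896819, minus strand, protein coding), the other Sprouty gene of the set, did not follow *Spry4*. With EtOH it lay between 8.08 and 13.0 CPM over 14 samples (median 10.3), and with 4-HT between 6.04 and 7.77 (median 6.85). The EtOH and 4-HT ranges did not overlap. In AC it went from 10.6 and 10.1 to 6.67 and 7.30 CPM, and in BPAC from 9.47, 8.08, 11.4 and 9.70 to 6.14, 6.73, 7.04 and 7.27. In BAC it went from 9.39, 11.0, 10.8 and 13.0 to 6.79, 7.03, 7.77 and 6.92 CPM, and in PAC from 9.10, 10.6, 10.4 and 10.1 to 6.04, 6.51, 7.18 and 6.60. The fall was thus seen in each of the 14 cultures. It fell in PAC by 0.61 (log2, SE 0.11, edgeR adjusted p = 0.000222), in BAC by 0.63 (SE 0.11, edgeR adjusted p = 4.79e-05) and in BPAC by 0.51 (SE 0.11, edgeR adjusted p = 0.000460). In AC, with 2 samples per arm, the value was -0.57 (SE 0.16, edgeR adjusted p = 0.0155) and did not pass. Without the 2 PAC cultures of duplicate 1 the PAC value was -0.58 (edgeR adjusted p = 0.0478), with 2 samples per arm. Scaled by library size alone, which moves the median 4-HT change of all genes by 0.17 to 0.22, the values of *Spry2* were -0.35 and -0.39 for AC and PAC and -0.46 and -0.29 for BAC and BPAC, and the BPAC call was lost (edgeR adjusted p = 0.0214).

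*Spred1* (ENSMUSG00000027351, chr2:117121374-117182279, plus strand, protein coding) encodes a Sprouty-related adaptor of neurofibromin and rose with the *Braf* allele. It went from 51.3, 52.1, 66.5 and 58.7 CPM to 83.1, 85.4, 103 and 100 in BAC and from 53.5, 53.4, 66.3 and 63.9 to 89.8, 84.0, 88.3 and 104 in BPAC. The lowest of these 8 samples with 4-HT, at 83.1, lay above the highest of all 14 EtOH samples, at 70.6. In PAC it went from 56.9, 51.6, 62.1 and 69.0 to 52.6, 46.8, 64.3 and 66.9, and in AC from 62.2 and 70.6 to 55.2 and 73.1. The groups overlapped there. The rise was 1.63-fold in BAC (log2 0.70, SE 0.13, edgeR adjusted p = 5.27e-05) and 1.54-fold in BPAC (log2 0.63, SE 0.13, edgeR adjusted p = 0.000169), while AC and PAC stood at -0.05 and -0.06, and PAC at 0.00 without its cultures of duplicate 1. With EtOH it lay between 51.3 and 62.2 CPM in duplicate 1 (median 53.4) and between 58.7 and 70.6 in duplicate 2 (median 66.3), so duplicates are compared within themselves below.

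*Spred2* (ENSMUSG00000045671, chr11:19924375-20024026, plus strand, protein coding), a relative with the same neurofibromin-recruiting role, did not pass in any genotype. It lay between 26.5 and 39.3 CPM over 14 EtOH samples (median 29.8) and between 24.6 and 38.4 over 14 samples with 4-HT (median 30.5). The ranges overlapped. For AC and PAC the log2 values were 0.01 and -0.09 and for BAC and BPAC 0.16 and 0.00, each with an SE of 0.11 to 0.16. PAC had 0.03 without its cultures of duplicate 1. In single cultures the change ran from -0.24 to 0.27. Its level with 4-HT was 24.6 to 33.3 CPM without and 29.0 to 38.4 with the *Braf* allele, a log2 difference of 0.23 (SE 0.09, edgeR adjusted p = 0.0362) that did not pass. With the duplicate number as a covariate it did (edgeR adjusted p = 0.00861).

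*Dusp6* (ENSMUSG00000019960, chr10:99263231-99267489, plus strand, protein coding), the cytoplasmic ERK phosphatase, had the highest level of the set once the *Braf* allele was induced. It reached 151, 145, 147 and 136 CPM in BAC, from 76.3, 83.0, 71.6 and 78.8 with EtOH. In BPAC it reached 133, 138, 140 and 120, from 84.7, 51.2, 102 and 69.2. The 4-HT values lay close together while the EtOH values of BPAC did not, with an SD of 0.10 against 0.42 on the log2 CPM scale. PAC went from 48.4, 74.9, 47.0 and 79.0 to 59.6, 61.4, 63.2 and 65.8 CPM (SD 0.40 with EtOH and 0.06 with 4-HT on the log2 scale), and its samples of duplicate 2, which leave out the pair with *Xist* and Y-linked counts, from 47.0 and 79.0 to 63.2 and 65.8. BAC showed no such contrast, with an SD of 0.09 with EtOH and 0.07 with 4-HT. AC stood at 60.0 and 75.9 CPM with EtOH and at 62.7 and 72.0 with 4-HT. The rise was 1.87-fold in BAC (log2 0.90, SE 0.16, edgeR adjusted p = 4.49e-05) and 1.73-fold in BPAC (log2 0.79, SE 0.16, edgeR adjusted p = 0.000175). With the counts summed per animal the BPAC value missed the threshold (0.80, edgeR adjusted p = 0.0105), and in duplicate 2 alone it was 0.61 (edgeR adjusted p = 0.0578). In AC and PAC the log2 values were -0.01 (SE 0.23) and 0.00 (SE 0.16), and PAC had 0.03 without its cultures of duplicate 1.

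*Dusp5* (ENSMUSG00000034765, chr19:53529109-53542431, plus strand, protein coding), a nuclear ERK phosphatase, went the other way in every culture. It fell from 72.1, 75.9, 49.6 and 54.2 CPM to 38.3, 33.6, 26.4 and 29.6 in BAC and from 93.7, 56.6, 73.3 and 60.5 to 28.3, 35.4, 35.9 and 31.4 in BPAC. In PAC it fell from 59.4, 83.1, 38.3 and 46.5 to 29.5, 30.9, 24.1 and 27.3, and in AC from 62.2 and 45.7 to 22.9 and 21.4. Within each genotype no 4-HT sample reached an EtOH sample. The log2 changes were -1.28 in AC (SE 0.28, edgeR adjusted p = 0.00312), -1.02 in PAC (SE 0.20, edgeR adjusted p = 0.000320), -0.98 in BAC (SE 0.20, edgeR adjusted p = 0.000180) and -1.12 in BPAC (SE 0.20, edgeR adjusted p = 3.35e-05). The AC call was lost without either AC culture, at -1.09 without duplicate 1 and -1.44 without duplicate 2 (edgeR adjusted p = 0.162 and 0.0540). Without the 2 PAC cultures of duplicate 1 the PAC value was -0.72 (edgeR adjusted p = 0.0710). An antisense gene, *AC137853.2*, overlaps an exon of *Dusp5* and was not among the genes counted. The strandedness of the counting was not given in the sources used here, so its reads cannot be told apart from those of *Dusp5*.

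*Dusp4* (ENSMUSG00000031530, chr8:34807297-34819894, plus strand, protein coding), the other nuclear phosphatase, passed or missed the test with the fit. With EtOH it lay between 43.7 and 68.4 CPM in duplicate 1 (median 54.9) and between 33.4 and 70.5 in duplicate 2 (median 41.1). With 4-HT it lay between 40.8 and 55.2 in the 6 samples without the *Braf* allele (median 50.8) and between 60.6 and 90.6 in the 8 with it (median 68.5), and these did not overlap. In BAC it went from 54.9, 58.3, 36.5 and 37.7 to 76.4, 75.4, 61.5 and 65.7 CPM. In BPAC it went from 64.8, 43.7, 70.5 and 41.4 to 60.6, 70.2, 90.6 and 66.9, where donor 1 of duplicate 1 was the 1 culture of the 8 with a lower value. The log2 change was 0.57 in BAC (SE 0.20, edgeR adjusted p = 0.0169) and 0.39 in BPAC (SE 0.20, edgeR adjusted p = 0.0979), and neither passed. With the culture as a replicate block, which compares the 2 treatments inside each culture, both passed, at 0.60 (SE 0.12, edgeR adjusted p = 0.000355) and 0.41 (SE 0.12, edgeR adjusted p = 0.00624). The BAC value also passed with DESeq2, with library size alone, with the duplicate covariate, fitted alone and without the PAC cultures of duplicate 1. With the counts summed over the 2 cultures of each animal neither passed, at 0.61 (edgeR adjusted p = 0.0178) and 0.38 (edgeR adjusted p = 0.103). In AC and PAC the values were 0.23 and 0.00, and PAC had 0.18 without its cultures of duplicate 1.

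Counted over the set, 3 genes rose and 2 fell in BAC and likewise in BPAC, where 20.3% and 22.0% of all genes rose and 21.5% and 23.0% fell. In PAC none rose and 2 fell, against 11.2% and 12.2% of all genes. In AC none rose and 1 fell, against 3.00% and 4.25%. At an unadjusted p under 0.05, 2 of the 7 passed in AC and 2 in PAC, none upward, against 30.8% and 45.6% of all genes in either direction. Limma-voom called 1 and 2 genes there and DESeq2 2 and 2. With the block, 4 rose and 2 fell in BAC and likewise in BPAC, against 25.3% and 26.7% of all genes in BAC and 26.7% and 27.7% in BPAC.

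**Figure D2:**
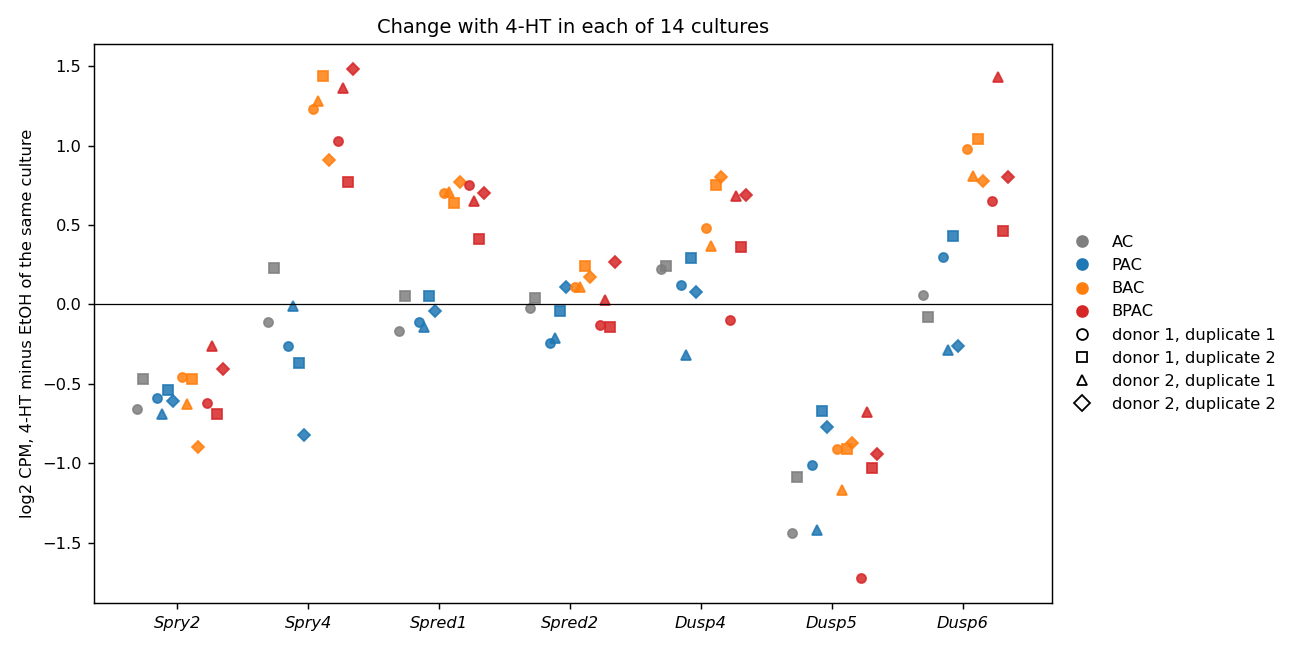
Change of each gene in each of the 14 cultures, as log2 CPM (prior count 2) with 4-HT minus EtOH of the same culture, coloured by genotype and shaped by donor and duplicate, with a line at 0. The 8 BAC and BPAC points lie above the 6 AC and PAC points for *Spry4*, *Spred1* and *Dusp6*, and all 14 points lie below 0 for *Spry2* and *Dusp5*.

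Read per culture, the set split in the same way. The change of *Spry4* was 0.77 to 1.48 in the 8 cultures with the *Braf* allele and -0.82 to 0.23 in the 6 without. For *Spred1* the ranges were 0.41 to 0.77 and -0.17 to 0.05, and for *Dusp6* 0.46 to 1.43 and -0.29 to 0.43. These 3 genes had no overlap, which 4.90% of all genes showed in the upward direction, and their 4 *Braf* donors also lay above the 3 others, as for 18.2% of all genes. *Dusp4* overlapped, at -0.10 to 0.80 and -0.32 to 0.29, and so did *Spred2*, at -0.14 to 0.27 and -0.24 to 0.11. *Spry2* ran from -0.90 to -0.26 and *Dusp5* from -1.72 to -0.67 over all 14 cultures. A fall in all 14 cultures was seen in 19.5% of all genes, and a call downward in all 4 genotypes, as *Dusp5* had, in 3.85%.

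The rising and falling genes were then set against each other inside each culture, where donor, duplicate and scaling are shared. *Spry4* minus *Spry2* was 1.46 to 1.92 in the 8 cultures with the *Braf* allele and -0.21 to 0.70 in the 6 without. *Spry4* minus *Dusp5* was 1.78 to 2.76 and -0.05 to 1.41. The change of *Spry4* thus lay above that of *Spry2* in every culture with the *Braf* allele and in 5 of the 6 without. These pairs were formed from the genes that split or fell above, so they describe the same values and are no further support. *Dusp6* minus *Dusp5*, the 2 ERK phosphatases, was 1.49 to 2.38 with the allele and 0.50 to 1.50 without, so these ranges touched. *Spred1* minus *Spry2* was 0.91 to 1.67 and 0.47 to 0.59, *Spred1* minus *Dusp5* was 1.33 to 2.47 and 0.72 to 1.28, and *Dusp6* minus *Spry2* was 1.15 to 1.69 and 0.35 to 0.96. In the 6 cultures without the allele *Spry2* and *Dusp5* lay between -1.44 and -0.47, while *Spry4*, *Spred1* and *Dusp6* lay between -0.82 and 0.43.

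**Figure D3:**
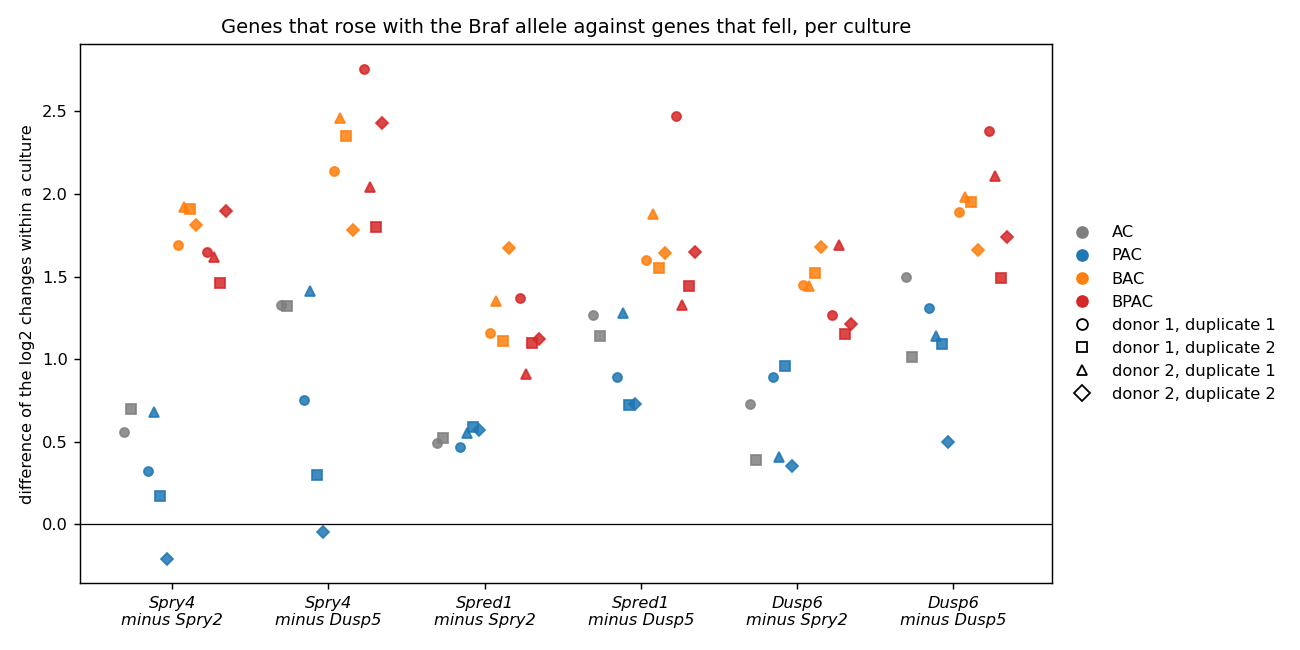
Difference between the log2 changes of a gene that rose with the *Braf* allele and a gene that fell, in each of the 14 cultures, coloured by genotype and shaped by donor and duplicate. For 5 of the 6 pairs all BAC and BPAC points lie above all AC and PAC points, and for *Dusp6* minus *Dusp5* the ranges touch at 1.49 and 1.50.

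To test the *Braf* allele, the changes of BAC and BPAC were averaged and set against the average over AC and PAC. For *Spry4* the change was larger by 1.34 (log2, SE 0.21, edgeR adjusted p = 0.000196), for *Dusp6* by 0.85 (SE 0.18, edgeR adjusted p = 0.00223) and for *Spred1* by 0.72 (SE 0.14, edgeR adjusted p = 0.00130). These were 3 of the 7 genes, against 3.05% of all genes called upward and 3.55% downward. The members' median was 0.36 and that of all genes -0.01. For *Dusp4* the value was 0.36 (SE 0.22, edgeR adjusted p = 0.292), for *Spred2* 0.12 (SE 0.12), for *Dusp5* 0.11 (SE 0.22) and for *Spry2* 0.02 (SE 0.13), and none of these passed. Without the 2 PAC cultures of duplicate 1 the 3 calls stood, at 1.47 for *Spry4* (edgeR adjusted p = 0.000540), 0.84 for *Dusp6* (edgeR adjusted p = 0.00673) and 0.69 for *Spred1* (edgeR adjusted p = 0.00229).

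**Figure D4:**
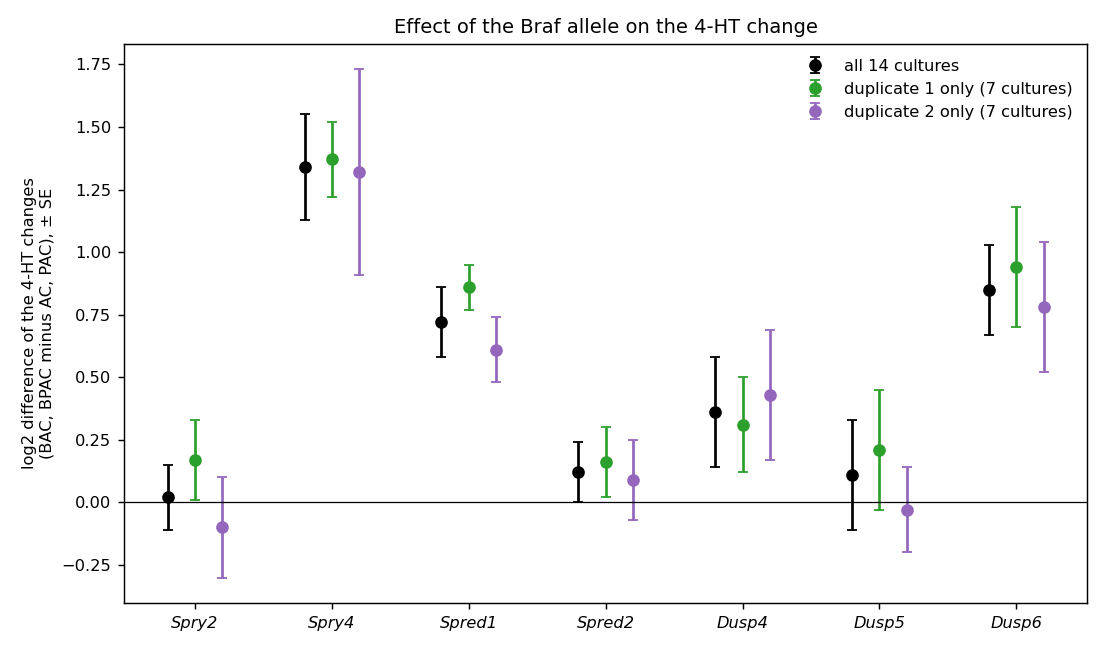
Effect of the *Braf* allele on the 4-HT change of each gene (log2, mean of BAC and BPAC minus mean of AC and PAC) with its standard error, fitted over all 14 cultures, over the 7 of duplicate 1 and over the 7 of duplicate 2. The 3 fits lie close together for *Spry4* (1.34, 1.37 and 1.32), *Spred1* (0.72, 0.86 and 0.61) and *Dusp6* (0.85, 0.94 and 0.78), and lie between -0.10 and 0.21 for *Spry2* and *Dusp5*.

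Within duplicate 1 alone the effect was 1.37 for *Spry4* (SE 0.15, edgeR adjusted p = 0.000937), 0.86 for *Spred1* (SE 0.09, edgeR adjusted p = 0.000779) and 0.94 for *Dusp6* (SE 0.24, edgeR adjusted p = 0.0277). Within duplicate 2 alone the sizes were 1.32 (SE 0.41), 0.61 (SE 0.13) and 0.78 (SE 0.26), with edgeR adjusted p of 0.132, 0.0499 and 0.147. The sizes kept their sign while the calls did not, and in duplicate 2 only 0.0814% of all genes were called upward, against 1.55% in duplicate 1. Without the AC culture of duplicate 1, *Spry4* was still called (1.25), while *Spred1* (0.67, edgeR adjusted p = 0.0167) and *Dusp6* (0.89, edgeR adjusted p = 0.0157) were not. *Dusp6* also missed without the AC culture of duplicate 2 (0.82, edgeR adjusted p = 0.0221) and when the 2 cultures of a donor were added up (0.89, edgeR adjusted p = 0.0364).

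With the *Trp53* allele present, BPAC against PAC, the *Braf* effect was 1.49 for *Spry4* (SE 0.27, edgeR adjusted p = 0.00138), 0.68 for *Spred1* (edgeR adjusted p = 0.0162) and 0.79 for *Dusp6* (edgeR adjusted p = 0.0285). This was 1 of 7 genes called, against 1.72% of all genes upward, and with the replicate block all 3 were called (edgeR adjusted p = 0.000233, 0.000207 and 0.00873), against 3.82% of all genes. With the counts summed per animal the 1 gene called was *Spred1* (0.69, edgeR adjusted p = 0.00403), while *Spry4* (1.51, edgeR adjusted p = 0.0142) and *Dusp6* (0.80, edgeR adjusted p = 0.136) were not called. Without the 2 PAC cultures of duplicate 1, *Spry4* stood at 1.76 (edgeR adjusted p = 0.00462), *Spred1* at 0.63 (edgeR adjusted p = 0.0539) and *Dusp6* at 0.76 (edgeR adjusted p = 0.0987). Without the *Trp53* allele, BAC against AC, the sizes were 1.18, 0.75 and 0.92 and no gene was called, against 0.215% of all genes, and 3 had an unadjusted p under 0.05, as did 12.7% of all genes. Limma-voom and DESeq2 also called none there, and the block called *Spred1* (edgeR adjusted p = 0.00157), against 0.496% of all genes upward, and summed per animal it was not called (0.80, edgeR adjusted p = 0.0185). The AC arm rests on 1 animal.

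The *Trp53* allele itself had no effect on these genes that passed. Its effect on the 4-HT change lay between -0.26 for *Spry4* and 0.06 for *Dusp5* (SE 0.12 to 0.22), with no gene called by edgeR, limma-voom or DESeq2 and none at an unadjusted p under 0.05. Of all genes 0.0148% were called.

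Before induction none of the 7 genes passed. With EtOH *Spry4* lay at 4.41 to 9.85 CPM in the 8 samples with the uninduced allele and at 3.91 to 6.76 in the 6 without it, a log2 difference of 0.49 (SE 0.15, edgeR adjusted p = 0.129). No other gene of the set had an unadjusted p under 0.05. By limma-voom and DESeq2 none was called either, against 0.0296% of all genes by edgeR. With 4-HT the difference between genotypes was 1.83 for *Spry4* (SE 0.16, edgeR adjusted p = 1.23e-08), 1.10 for *Dusp6* (SE 0.13, edgeR adjusted p = 6.91e-07) and 0.60 for *Spred1* (SE 0.10, edgeR adjusted p = 4.70e-05). These were 3 of the 7, against 15.6% of all genes higher. *Dusp4* (0.50, SE 0.16, edgeR adjusted p = 0.0131) and *Dusp5* (0.38, SE 0.16, edgeR adjusted p = 0.0521) did not pass. Limma-voom and DESeq2 each called 4 genes, with *Dusp4* as the added one, and it also passed with the duplicate number as a covariate and without the PAC culture of donor 2, duplicate 1. Without both PAC cultures of duplicate 1 the level differences were 1.96 for *Spry4*, 1.07 for *Dusp6* and 0.51 for *Spred1*, all still called, and *Dusp4* passed (0.59, edgeR adjusted p = 0.00499). Under that setting *Dusp5* had 0.44 (edgeR adjusted p = 0.0191) and *Spred2* 0.18 (edgeR adjusted p = 0.156). In CPM with 4-HT, 4 of the 7 genes had no overlap between the 8 samples with and the 6 without the allele, namely *Spry4*, *Spred1*, *Dusp4* and *Dusp6*, as did 11.7% of all genes in this direction.

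The rest of the pathway was read from 4 lists. Of all genes, 2.66% rose and 3.85% fell by the test in all 4 genotypes. Of the upstream core from receptor to ERK, all 20 genes were counted, and *Gab1*, the docking adaptor downstream of receptor kinases, was the 1 gene whose change differed with the *Braf* allele, by -1.09 (edgeR adjusted p = 4.58e-05). It changed by -1.43 in BAC and -1.61 in BPAC, against -0.49 and -0.37 in AC and PAC. In the single genotypes 3, 7, 7 and 8 of the 20 fell in AC, PAC, BAC and BPAC, where 4.25%, 12.2%, 21.5% and 23.0% of all genes fell, and 2 rose in BAC, against 20.3%. *Erbb3*, a receptor of the EGF receptor family, fell in all 4 genotypes (-0.75, -0.67, -0.98 and -1.15), as did *Mapk3*, which encodes ERK1 (-0.70, -0.61, -0.72 and -0.93). *Map2k1*, which encodes MEK1, did so too and is named after its values were seen. The list's median *Braf* effect was 0.07.

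Among 14 of 15 partners and other RAS brakes that were counted, none was called for the *Braf* effect (median -0.04). With the replicate block 3 of the 14 passed, 1 upward and 2 downward, against 6.51% and 7.48% of all genes, and they are named here after their values were seen. *Spry1*, another Sprouty gene, had 0.48 (edgeR adjusted p = 0.0695, and 0.00148 with the block). *Il17rd*, which encodes the inhibitor SEF, had -0.94 (edgeR adjusted p = 0.0447, and 0.00693 with the block), and *Dab2ip*, a RAS-GAP gene, had -0.36 (edgeR adjusted p = 0.0344, and 0.00814 with the block). *Lrig1*, a transmembrane brake on receptor kinases, rose in all 4 genotypes (0.86, 0.82, 0.74 and 0.94). Of the 14 partners 1, 1, 3 and 3 rose in AC, PAC, BAC and BPAC, where 3.00%, 11.2%, 20.3% and 22.0% of all genes rose. In the same order 0, 0, 1 and 2 fell, against 4.25%, 12.2%, 21.5% and 23.0%. Of 10 other phosphatases, mostly DUSPs, 8 were counted and none was called for the *Braf* effect (median 0.15). By genotype, in the same order, 2, 2, 3 and 2 of the 8 rose and 1, 2, 3 and 3 fell, against the same shares. *Dusp7*, a cytoplasmic ERK phosphatase related to *Dusp6*, rose in all 4 genotypes (0.99, 1.07, 1.39 and 1.49), and so did *Dusp9* (1.28, 0.86, 1.39 and 1.48). *Ppp2ca*, which is not a DUSP gene and is named after its values were seen, fell in all 4.

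Of 18 transcripts that ERK signalling is known to induce, 2, 6, 8 and 7 rose over AC, PAC, BAC and BPAC, where 3.00%, 11.2%, 20.3% and 22.0% of all genes rose. In the same order 0, 1, 2 and 2 fell, against 4.25%, 12.2%, 21.5% and 23.0%. The *Braf* effect was called for *Etv4*, an ETS transcription factor (1.12, edgeR adjusted p = 6.63e-05), and for *Fosl1*, an AP-1 subunit (0.81, edgeR adjusted p = 0.00864). With the replicate block *Egr1*, an immediate early transcription factor named after its values were seen, also passed, in the other direction (-0.85, edgeR adjusted p = 0.0569, and 0.000192 with the block), from -1.06 in BAC and -1.03 in BPAC against -0.11 and -0.29 in AC and PAC. The median of the list was 0.06. *Myc* (1.25, 1.32, 1.84 and 1.58) and *Phlda1* (0.73, 0.78, 0.98 and 1.12) rose in all 4 genotypes. Without the 2 PAC cultures of duplicate 1 the *Braf* effect was still called for *Etv4* (1.18, edgeR adjusted p = 7.74e-05) and *Gab1* (-1.19, edgeR adjusted p = 5.71e-05) but not for *Fosl1* (0.77, edgeR adjusted p = 0.0274). It was then 0.46 for *Spry1*, -0.77 for *Il17rd*, -0.36 for *Dab2ip* and -0.92 for *Egr1*. The PAC changes named from these lists kept their sign with 2 samples per arm, and none of them passed. They were 0.63 for *Lrig1*, 0.89 for *Dusp7*, 0.61 for *Dusp9*, 0.79 for *Myc*, 0.65 for *Phlda1* and 0.55 for *Spry1*. The falls were -0.43 for *Erbb3*, -0.45 for *Mapk3*, -0.59 for *Map2k1*, -0.31 for *Ppp2ca*, -0.18 for *Gab1* and -0.15 for *Egr1*.

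**Figure D5:**
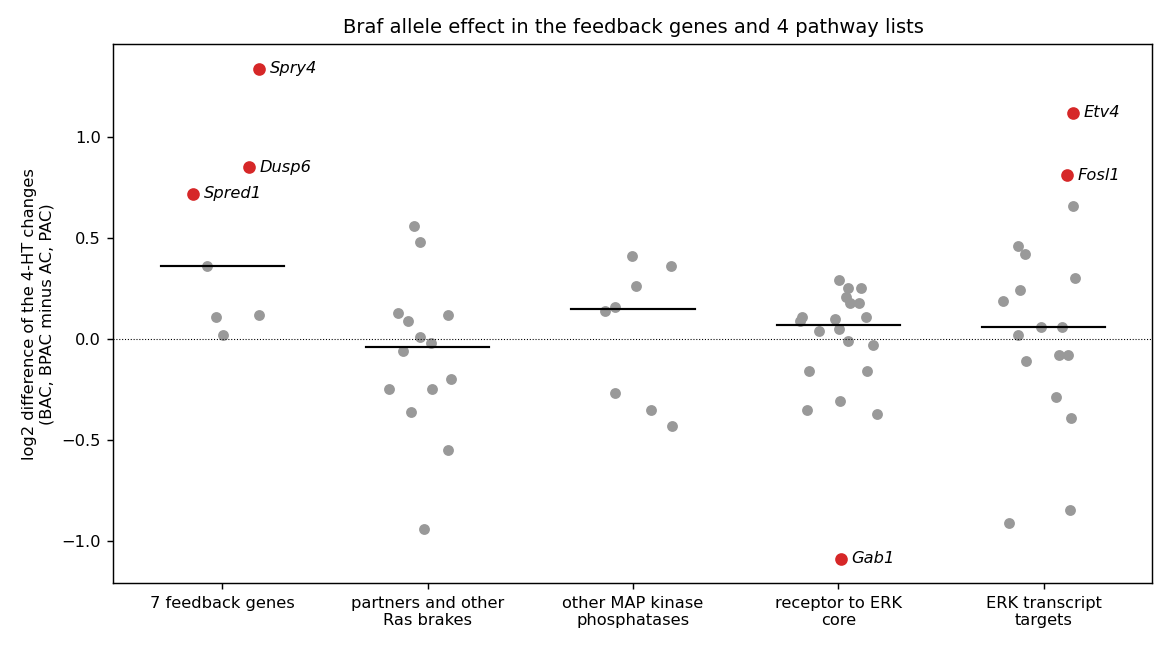
Effect of the *Braf* allele on the 4-HT change (log2) for the 7 feedback genes and the counted genes of 4 pathway lists, with red points for an edgeR adjusted p under 0.01, grey points for the rest and a line at the median of each list. Horizontal position within a list carries no meaning, and 3 of the 7 feedback genes, none of 14 partners, none of 8 other phosphatases, 1 of 20 core genes and 2 of 18 targets are red.

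Other programmes moved in the same samples. The 10 colonocyte markers summed to 19092 to 29592 CPM in the 14 EtOH samples and to 4789 to 13732 with 4-HT, and 5, 7, 9 and 10 of the 10 fell in AC, PAC, BAC and BPAC, where 4.25%, 12.2%, 21.5% and 23.0% of all genes fell. These are the samples in which *Spry2* and *Dusp5* were lower. Of the 10 colon epithelium markers 1, 3, 6 and 6 fell in the same order and none rose. *Epcam*, an epithelial adhesion gene, was lower after induction whatever the genotype. Its log2 values were -0.44 for PAC, -0.47 for AC, -0.58 for BAC and -0.74 for BPAC. The AC value alone did not pass (edgeR adjusted p = 0.0112). The *Braf* effect on *Epcam* was -0.21 and was not called (edgeR adjusted p = 0.165). *Krt18*, from the same list, went the other way, with values from 0.27 (AC) to 0.52 (BAC), and passed in no genotype. The 8 proliferation markers summed to 645 to 858 CPM with EtOH. With 4-HT they summed to 1389 to 1633 CPM in the 8 samples with the *Braf* allele, in which *Spry4*, *Spred1* and *Dusp6* stood apart, and to 1012 to 1187 in the 6 without. Of these 8 markers 3, 6, 7 and 8 rose in AC, PAC, BAC and BPAC, where 3.00%, 11.2%, 20.3% and 22.0% of all genes rose. For the *Braf* effect 1 of the 8 was called, upward, against 3.05% of all genes. The 8 stem cell markers summed to 407 to 659 CPM with EtOH and to 914 to 1330 with 4-HT. The 8 goblet cell markers summed to 2206 to 5684 CPM with EtOH and to 2011 to 3227 with 4-HT. Of these 8, 1, 2, 3 and 3 rose in AC, PAC, BAC and BPAC, where 3.00%, 11.2%, 20.3% and 22.0% of all genes rose. In the same order 0, 0, 3 and 3 fell, against 4.25%, 12.2%, 21.5% and 23.0%. *Spdef* changed by 0.88, 1.08, 1.53 and 1.66 and *Tff3* by -0.59, -0.14, -1.48 and -1.21. The *Braf* effect was called for 1 of the 8 upward and for 1 downward, against 3.05% and 3.55% of all genes, and not for *Spdef* (0.62, edgeR adjusted p = 0.118). *Epcam*, *Krt18*, *Spdef* and *Tff3* are named after their values were seen. The part of these programmes in the changes of the 7 genes was not tested.

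The genes whose 14 changes were most like each member are given as a description, since the cultures fall into 2 classes with and without the *Braf* allele. *Spry4* ran closest to *Hnrnpf*, *Mars* and *Morf4l2* (Pearson r = 0.963, 0.957 and 0.951). Within the 8 cultures with the allele these were 0.58, 0.72 and 0.65. *Dusp6* ran close to *Ubqln1* and *Anxa4* (0.944 and 0.942) and *Spred1* to *Fzd1*, *Morf4l2* and *Fam136a* (0.959, 0.958 and 0.958), of which *Fzd1* had 0.76, *Morf4l2* 0.11 and *Fam136a* -0.34 within the 8. For *Dusp6* the values within the 8 were 0.79 for *Ubqln1* and 0.84 for *Anxa4*. *Dusp5* ran closest to *Lynx1*, *Tjp1* and *Ecm1* (0.907, 0.880 and 0.873, and 0.92, 0.88 and 0.89 within the 8), and *Dusp4* to *Slc17a9*, *Pdcd6ip* and *Rab31* (0.950, 0.920 and 0.920). *Spred2* ran closest to *Cobll1*, *Esrp2* and *Ddx19b* (0.940, 0.873 and 0.870) and *Spry2*, the least matched, to *Ppif*, *Zfp354a* and *Impa2* (0.760, 0.747 and 0.726). Between members the highest values were *Spry4* with *Spred1* (0.91), *Spred1* with *Dusp6* (0.85) and *Spry4* with *Dusp6* (0.84), while *Spry2* with *Dusp5* had 0.36 although both fell throughout.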

How the data were processed

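RNA-seq counts per gene of 28 organoid samples were used as the authors deposited them: whole-number counts of 13519 genes, not normalized, of which 13479 Ensembl IDs matched a symbol. Trimmomatic 0.39 and STAR 2.5.2b are named in the submitters' processing notes, and the build is GRCm38. The counting program and its strand setting are not given in the sources used here. The lowest row sum was 116, and no further filter was set.

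Samples were grouped by genotype and treatment from the labels (8 groups). Counts of all genes were scaled by TMM and fitted with edgeR 4.0.16 (R 4.3.3) by the quasi-likelihood F test, with Benjamini-Hochberg adjustment over all genes and a threshold of 0.01. Changes per culture are log2 CPM with a prior count of 2. Alternatives were limma-voom 3.58.1, DESeq2 1.42.0, other scalings and filters, the culture as a replicate block and summed donors. Further ones were the duplicate number as a covariate, each genotype fitted alone, single duplicates, thinned counts and left-out cultures. The sum of both PAC 4-HT samples of duplicate 1 was added after seeing the data. The fits were tested on simulated counts. Total counts of 20577276 to 40068718 per sample set the precision, with a common biological coefficient of variation of 0.191.

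The EtOH and 4-HT samples of a culture come from the same animal. Their deviations from the group means correlated at 0.245 to 0.532 (median 0.418, 12 cultures). The main fit did not use this pairing, so its p-values leave it out. The replicate block, which pairs the 2 samples of a culture, was an alternative. Members and lists were chosen with earlier results of these data known. All 7 members are named, and of each pathway list up to 4 genes called for the *Braf* effect and up to 2 called the same way in all 4 genotypes, besides the 3 genes most like each member. For *Dusp6*, 1 of these 3 is not reported here.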

Additional observations from a re-analysis of the deposited data

Results flagged for a closer look

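The change of *Dusp5* in the BAC culture of donor 2, duplicate 1, was -1.17, while the other 3 BAC cultures lay between -0.91 and -0.87. Dixon's test at the 95% level marked this 1 value of 63 groups of 4 cultures or samples tested, and chance marks about 1 group in 20.

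A test of the difference itself separated the 4-HT changes by the *Braf* allele. This held for *Spry4* (log2 difference 1.34), *Spred1* (0.72) and *Dusp6* (0.85) over all genotypes, and for *Spry4* between BPAC and PAC (1.49). For each gene the change was upward in all 8 cultures with the allele, which come from 4 animals and of which 4 are BPAC. With the counts summed per animal the effect over all genotypes was not called for *Dusp6* (0.89, edgeR adjusted p = 0.0364). Summed in this way, that of *Spry4* between BPAC and PAC was not called either (1.51, edgeR adjusted p = 0.0142).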

How the results depend on the processing

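AC rests on 1 donor and 2 cultures, and 2 PAC samples with 4-HT hold *Xist* and Y-linked counts together. Over the alternatives tried, 1317 fold changes of single genes kept their direction and their side of the threshold, 28 passed newly, 28 no longer passed and 48 changed sign, and 276 counts of genes called stayed within 1.5 times while 25 did not. All 15 mean changes over cultures that moved did so with library size alone. The replicate block gives no value for level comparisons, nor does fitting each genotype alone for comparisons between genotypes. Beyond the calls given beside the results, the replicate block changed no other call of the 7 genes. The cause of each difference was not tested.

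The count called in AC was 2 with DESeq2, with the duplicate covariate and at 0.05, 0 in either duplicate alone, and 0 to 2 with 1 culture left out. In PAC it was 0 in duplicate 2 alone and without both cultures of duplicate 1. In duplicate 2 alone it was 2 in BAC, 2 in BPAC and 0 for the *Braf* effect, which was 1 to 3 with 1 culture left out. Without the *Trp53* allele the *Braf* effect was called for 1 gene with the replicate block and with the covariate. With it, the count was 3 with DESeq2, with the replicate block and at 0.05, 2 with the covariate and in duplicate 1, 0 in duplicate 2, and 1 to 2 with 1 culture left out. For the 4-HT level it was 5 with the covariate and at 0.05. In duplicate 2 alone *Spry2*, *Spry4* and *Dusp6* lost their calls in BAC and BPAC. *Spry2* in BPAC lost its call with library size alone, when the genotype was fitted alone and in duplicate 1 alone.

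Of the values given by gene in the report, those that changed sign lay between -0.12 and 0.21. With library size alone they were *Spry2* for the *Braf* effect (-0.01), *Spred1* in AC (0.17) and PAC (0.17), *Spred2* in PAC (0.13) and *Dusp6* in AC (0.21). With mean CPM of at least 5 they were *Spry2* for the *Braf* effect (-0.02) and *Spred2* in BPAC (-0.03). In duplicate 1 they were *Spry4* in AC (-0.12), *Spred2* in AC (-0.04) and BPAC (-0.07), *Dusp4* in PAC (-0.11), and *Dusp6* in AC (0.05) and PAC (-0.02). In duplicate 2 they were *Spry2* and *Dusp5* for the *Braf* effect (-0.10 and -0.03), *Spred1* in AC (0.05) and PAC (0.00), and *Spred2* in PAC (0.03). Without both PAC cultures of duplicate 1 they were *Spred1* (0.00) and *Spred2* (0.03) in PAC and *Dusp5* for the *Braf* effect (-0.04). With those 2 samples summed they were *Spred1* (0.01) and *Dusp4* (-0.05) in PAC. With donors summed they were *Spred2* in AC (-0.02) and BPAC (-0.01) and *Dusp6* in PAC (-0.01). *Spred2* had -0.01 in AC fitted alone, and 0.00 in BPAC with the covariate and with thinned counts, where *Dusp4* had -0.01 in PAC. With 1 culture left out the lowest and highest values were -0.03 and 0.07 for the *Braf* effect on *Spry2* and -0.09 and 0.06 for *Spred2* in BPAC and -0.04 and 0.17 for the *Trp53* effect on *Dusp5*, while in AC they were -0.11 and 0.23 for *Spry4*, -0.17 and 0.05 for *Spred1*, -0.02 and 0.04 for *Spred2* and -0.08 and 0.06 for *Dusp6*, and in PAC -0.06 and 0.15 for *Dusp4* and -0.12 and 0.11 for *Dusp6*.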
